A study of Mus musculus with 8 samples.

Results

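The nuclei described here were labelled Pvalb and Pthlh interneurons of the mouse caudate putamen by a rule on counts of marker genes. They come from single-nucleus RNA sequencing with unique molecular identifiers (UMIs, 1 per captured transcript). A nucleus was taken when its barcode had at least 500 genes, at least 6 UMIs of Gad1 and Gad2 together and at least 2 of Pvalb and Pthlh together, with under 4 of the cholinergic genes Chat, Slc5a7 and Slc18a3 and under 6 of Sst, Npy and Nos1. This gave 205 of the 61767 caudate putamen barcodes with at least 500 genes, of 12193 with the Gad UMIs, and of 109826 barcodes in the whole series, which also covers the anterior hippocampus. The 4 libraries held 66 and 66 of these nuclei at 3 months and 42 and 31 at 21 months. The 205 were not of 1 kind, and for 27 of them markers described further on go against the label. The mice were C57BL/6JN, at both ages untreated as far as the labels state, and the tissue was punched from the left hemisphere. Each library was a pool of 2 animals, a male and a female, whose nuclei the labels describe as pooled in equal numbers, and there were 2 libraries per age. Nuclei were freed in a detergent buffer and sorted on Hoechst, a DNA stain, with no marker for a cell type. The comparison the series was built on is 21 months against 3 months.

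Striatal interneurons are a small minority among the projection neurons of the striatum, the medium spiny neurons, which are also GABAergic and so also carry Gad1 and Gad2, the enzymes that make GABA. Interneurons with parvalbumin (Pvalb), a calcium-binding protein, are the fast-spiking cells that inhibit medium spiny neurons close to the cell body. They arise in the medial ganglionic eminence under the transcription factors Nkx2-1, Lhx6 and Sox6. Pthlh encodes the parathyroid hormone-like hormone, a secreted peptide, and marks a striatal interneuron population that includes the Pvalb cells and grades into cells with little Pvalb.

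The rule genes chose the nuclei, so their values are given as a description and were not tested. Pvalb (chr15:78191114-78206400 in mm10) ranged from 0 to 6 UMIs per nucleus with a median of 1, and 294 UMIs in all. Pthlh (chr6:147252101-147264183) ranged from 0 to 10 with a median of 2, and 348 in all. Pvalb alone was found in 61 nuclei, Pthlh alone in 72 and both in 72, so most nuclei sat within a few UMIs of the line. In the order 3 months replicates 1 and 2, then 21 months replicates 1 and 2, the summed nuclei held Pvalb at 99.7, 48.3, 65.4 and 71.0 CPM (the gene's UMIs per 1000000 UMIs of the sum) and Pthlh at 59.2, 120.3, 77.2 and 64.2 CPM. The first young library was the highest for Pvalb and the lowest for Pthlh. Gad1 and Gad2 together had a median of 12 UMIs per nucleus, with a range of 6 to 41.

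Nuclei just outside the line were partly of the same kind, by genes the rule did not use. Erbb4, the neuregulin receptor of these interneurons, and Nxph1, a secreted neurexin ligand, together made up at least 1% of UMIs in 74.5% of the 94 nuclei with 2 Pvalb and Pthlh UMIs and in 78.4% of the 111 with 3 or more. The share was 33.4% of the 317 Gad nuclei with 1 such UMI and 1.78% of the 11571 with none. On the Gad side, it was 64.0% of the 25 nuclei with 6 or 7 Gad UMIs and 79.3% of the 29 with 4 or 5, which the rule left out. Oligodendrocyte nuclei, which should lack both genes, had at least 1 Pvalb or Pthlh UMI in 27 of 2757 (0.979%, exact 95% interval 0.646 to 1.42) and at least 2 in 1 (0.0363%, 9.18e-04 to 0.202), at a median of 4416 UMIs. The Gad nuclei had at least 1 in 523 of 12193 (4.29%) and at least 2 in 205 (1.68%, 1.46 to 1.93), at a median of 17545 UMIs. The depths differ, so these shares are side by side as background and were not tested.

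The libraries differed in depth. Median UMIs over all barcodes with at least 500 genes were 10152 and 11999 at 3 months and 8119 and 7314 at 21 months, and in the Pvalb and Pthlh nuclei 17113, 19674, 17484 and 15458. A doublet caller marked 19 of the 205 nuclei, at 9.09%, 6.06%, 2.38% and 25.8% of the 4 libraries, against 7.11%, 10.3%, 8.11% and 13.4% of all barcodes. No nucleus was left out for this in the values below unless stated. Of the 61387 distinct barcodes, 375 occurred in more than 1 caudate putamen library, and 3 of the 205 nuclei carried such a barcode. The labels number the samples at each age and do not tie equal numbers to one another.

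The label was checked against other genes by comparing the summed nuclei with the 11571 other Gad nuclei of the same libraries, which had no Pvalb or Pthlh UMI. Of these 11571, 206 (1.78%) had Erbb4 and Nxph1 at 1% of UMIs or more, as did 157 of the 205. The part of those 206 in the reference levels, and in the age values of the reference, was not tested. The Pvalb and Pthlh nuclei were chosen by UMIs counted in the same barcodes. The comparison thus describes their contents and is no independent support for the label. Of 14 markers of medial ganglionic eminence and fast-spiking interneurons, 12 were higher in the Pvalb and Pthlh nuclei and 2, Satb1 and Slc32a1, did not pass. Erbb4 stood at 6784, 11930, 8601 and 9917 CPM in the 4 libraries, against a mean of 569 ± 117 CPM (SD, n = 4) in the other Gad nuclei. All 10 general markers of medium spiny neurons were lower, with Rgs9, a regulator of G-protein signalling, at 143 ± 46.5 CPM against 1044 ± 87.3 CPM (SD, n = 4 each). Over all 16146 genes tested, 19.0% were higher and 19.9% lower, 38.9% in all (edgeR's quasi-likelihood test with the library as a block, Benjamini-Hochberg adjusted p under 0.05), so a call in either direction was common.

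Among the transcription factors of the list, 11 of 15 were higher and none was lower. Nkx2-1, which specifies the medial ganglionic eminence, was at 8.25, 27.3, 20.9 and 23.7 CPM in the 4 libraries against a mean of 0.688 ± 0.182 CPM (SD, n = 4), a log2 difference of 4.63 (SE 0.40, adjusted p = 1.22e-10). Lhx6, which acts after it, was at 23.2, 49.7, 47.1 and 74.4 CPM in the 4 libraries against a mean of 1.93 ± 0.432 CPM. Sox6, needed for the maturation of these cells, was at 349, 616, 616 and 614 CPM against 26.7 ± 8.39 CPM. These 3 genes were called higher in a comparison that called 38.9% of all genes tested. The first young library was the lowest for each. Maf, which acts in the same lineage, was also higher, at a log2 difference of 5.25 (SE 0.39).

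**Figure D1:**
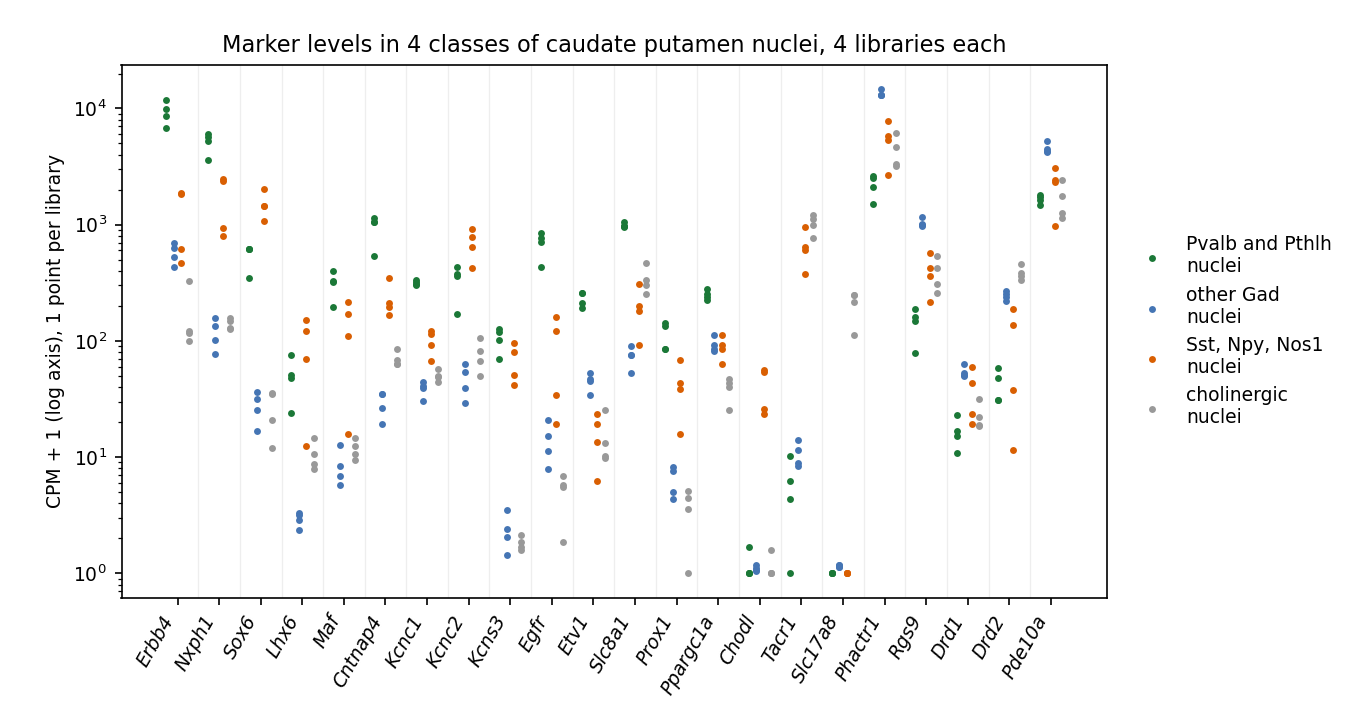
Summed CPM plus 1 (log axis) of 22 genes in 4 classes of caudate putamen nuclei, with 1 point per library and 4 libraries per class. The Pvalb and Pthlh nuclei sit above the other Gad nuclei for Erbb4 through Ppargc1a and below them for Phactr1 and Rgs9, while Slc17a8, a cholinergic marker, is at 0 in their 4 libraries.

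Potassium channel genes were mostly higher. Of 21 channel genes tested, 15 were higher and 4 lower in the Pvalb and Pthlh nuclei. Over all genes tested, 19.0% were higher and 19.9% lower, and these shares apply to every list compared with the other Gad nuclei. Kcns3, a silent subunit that modifies Kv2 channels, had the largest log2 difference of any gene named by the rule, with 69.0, 101, 118 and 125 CPM against 1.04, 0.434, 1.42 and 2.52 CPM (6.28, SE 0.47, adjusted p = 0.00113). Kcnc1, the Kv3.1 channel that lets these neurons repolarise quickly, was even across libraries at 303, 335, 307 and 321 CPM against 37.8 ± 5.78 CPM. Kcnip1, a Kv4 channel-interacting protein, was at 934 ± 48.6 CPM against 26.5 ± 9.11 CPM (SD, n = 4 each). The 4 lower genes included Kcnd2, the Kv4.2 channel, at a log2 difference of -1.74 (SE 0.10), and Kcnq5, at -1.76 (SE 0.10). Slc8a1, a sodium-calcium exchanger, was the only one of 11 calcium buffers and pumps that was higher, at 989 ± 46.3 CPM against 72.5 ± 15.2 CPM, and 7 were lower.

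Extracellular matrix genes of the perineuronal net, the coat around fast-spiking cells, were 5 higher and 3 lower of 13 tested. For this list and the next, 19.0% of all genes tested were higher and 19.9% lower. Acan, its aggrecan core protein, was at 17.2, 15.4, 10.5 and 10.1 CPM against a mean of 0.392 ± 0.230 CPM (log2 5.12, SE 0.47). Hapln1, a link protein, was at 39.4 ± 13.9 CPM against 2.07 ± 0.668 CPM, and Adamts5, a protease that cuts aggrecan, at 63.4 ± 23.6 CPM against 1.96 ± 0.379 CPM. Of 6 genes of the neuregulin and ErbB list, 3 were higher and 2 lower. Erbb4 was the receptor that stood high, and Nrg1, one of its ligands, was lower at 1344 ± 483 CPM against 6728 ± 442 CPM. Egfr, a related receptor, was at 430.3, 856, 705 and 761 CPM against 12.8 ± 5.56 CPM. Egfros was called higher too, and lies antisense to Egfr. The files do not state that counting used the strand, so reads of the pair may not be separable.

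For Pthlh itself, the receptor that receives its peptide was scarce in these nuclei and in the other Gad nuclei. Pth1r was at 1.50 CPM in the first young library and at 0 in the other 3, against 2.89 ± 0.560 CPM in the other Gad nuclei (log2 -2.73, SE 0.82, adjusted p = 0.00833). It passed the low-count filter through the far larger sums of the other Gad nuclei. The call of lower thus rests on very few UMIs in the Pvalb and Pthlh nuclei. Pth and Pth2, the related hormones, had no UMI in either class. Of 6 genes tested on this list, Gnas, the stimulatory G-protein through which Pth1r signals, and Prkaca were higher and Pth1r lower. Gnas was at 188, 204, 199 and 150.5 CPM against 29.2 ± 4.89 CPM, and its level in the Sst interneurons described further on was 209 ± 53.7 CPM, with no difference passing there (log2 -0.18, SE 0.20, adjusted p = 0.647).

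Other groups moved against the medium spiny background. All 12 immediate early genes, which report recent activity, had a log2 difference under 0 and 10 passed, with Npas4 at 6.84 ± 2.15 CPM against 32.0 ± 10.0 CPM and Egr1 at 19.3 ± 2.00 CPM against 71.2 ± 16.8 CPM. Of 27 genes of oxidative phosphorylation and mitochondria, 17 were higher and none lower, with a median log2 difference of 0.42 against -0.05 over all genes tested. Ppargc1a, a coactivator of mitochondrial genes, was at 249 ± 24.6 CPM against 92.1 ± 13.7 CPM. Of 19 neuromodulator receptors, 4 were higher and 10 lower, where 19.0% of all genes tested were higher and 19.9% lower. The share of receptors that were higher was thus near that of all genes. Chrm2, a muscarinic receptor, and Adra1a, an adrenergic receptor, were among the higher ones at log2 differences of 3.97 (SE 0.21) and 3.14 (SE 0.41), and the dopamine receptors Drd1 and Drd2 were lower at -2.05 (SE 0.17) and -2.79 (SE 0.13).

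The remaining genes named by size of difference were higher for Gpc3, a cell-surface proteoglycan, Pde3a, a phosphodiesterase, Cemip, which acts on hyaluronan, and Moxd1, at log2 differences of 5.77, 5.70, 5.60 and 5.43. Those lower were Sntg2, Ntng1, Spata16, Tcf7l1, L3mbtl4, Slc24a4, Rxrg, a retinoid receptor, and Ror1, a receptor of the Wnt pathway, from -3.92 for Sntg2 to -3.35 for Ror1. Sntg2, a syntrophin, was at 4.50 to 11.8 CPM in the 4 libraries against 106 to 135 CPM.

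Markers of other cell types were summed beside these. The 14 medial ganglionic eminence and fast-spiking markers summed to 12564, 20837, 16977 and 18621 CPM in the Pvalb and Pthlh nuclei against 652 to 1063 CPM in the other Gad nuclei. The 10 medium spiny markers summed to 4448 to 6453 CPM against 25881 to 29835 CPM. Of 6 cholinergic markers, 4 were at 0, among them Gbx2, Slc17a8 and Zic1. The list summed to 3.38 to 15.7 CPM against 1.69 to 2.77 CPM, and Lhx8, a homeobox gene of that lineage and the 1 marker tested, was higher at 3.38 to 10.5 CPM against 1.15 to 2.01 CPM (log2 1.92, SE 0.44, edgeR adjusted p = 8.42e-04). Chodl, the defining marker of Sst and Nos1 cells beside the rule genes, was at 0 in 3 libraries and at 0.700 CPM in 1. Oligodendrocyte markers, 6 in number with none at 0 throughout, summed to 273 to 428 CPM against 222 to 290.1 CPM. Of these 6, 1 passed as higher and 2 as lower. Only 1 had a log2 difference above 0, and the median was -0.66. The 5 astrocyte markers, none at 0 throughout, summed to 234, 173, 199 and 272 CPM against 81.4, 52.7, 147 and 124 CPM, so the summed groups did not overlap. Of them 1, the glutamate transporter Slc1a3, was higher (log2 2.94, SE 0.30, edgeR adjusted p = 0.00194). The markers were not higher as a set, since 2 of the 5 had a log2 difference above 0 and the median was -0.35. The 10 markers of Th, Cck, Vip and other interneurons summed to 798, 414, 1266 and 367 CPM against 467 to 507 CPM, with Vip and Htr3a at 0. Of these 10, Prox1, a homeobox gene, was higher (log2 4.28, SE 0.32) and Lamp5 lower, and Adarb2 ran from 11.2 to 986 CPM across libraries. Of 5 markers of cortical glutamatergic neurons, 2 were at 0, Slc17a6 among them. That list summed to 0.750, 2.10, 1.31 and 5.07 CPM against 1.77 to 4.02 CPM, and the 1 marker tested did not pass. Of 5 microglia markers tested, 1 was higher and 0 lower, with a median log2 difference of -0.15. The part of free RNA and doublets in these values was not tested.

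The 205 nuclei were not of 1 kind. Erbb4 and Nxph1 made up at least 1% of UMIs in 157 of them, called Erbb4-Nxph1 nuclei here, and 48 lay below that line. The line was drawn after the values were seen and is a range, not a type. It had 13 nuclei from 0.8 to 1.2%. Of the 48, 27 had at least 10 UMIs of Rgs6, a regulator of G-protein signalling, and 10 had at least 50 UMIs of Adarb2, an editing enzyme homologue that marks interneurons from the caudal ganglionic eminence in cortex. The last 11 had neither, and 6 of them were called doublets. These groups are described without tests.

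The split was uneven across libraries. The Erbb4-Nxph1 nuclei numbered 34, 62, 32 and 29, so that 48.5%, 6.06%, 23.8% and 6.45% of the nuclei lay outside. The Rgs6 nuclei numbered 23, 1, 3 and 0 and the Adarb2 nuclei 4, 0, 6 and 0. Since each library held 1 male and 1 female, transcripts of Xist and of Y-linked genes place a nucleus with 1 animal. In the first young library 15 Rgs6 nuclei were female, none was male and 8 could not be called, against 54.2% female among all called barcodes there and 61.1% to 63.7% in the other 3 libraries. All 4 Adarb2 nuclei of that library were female, and in the first old library 4 were male and 2 not called. The Erbb4-Nxph1 nuclei came from both animals in every library, with 9 female and 19 male, 35 and 11, 17 and 10, and 16 and 6.

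**Figure D2:**
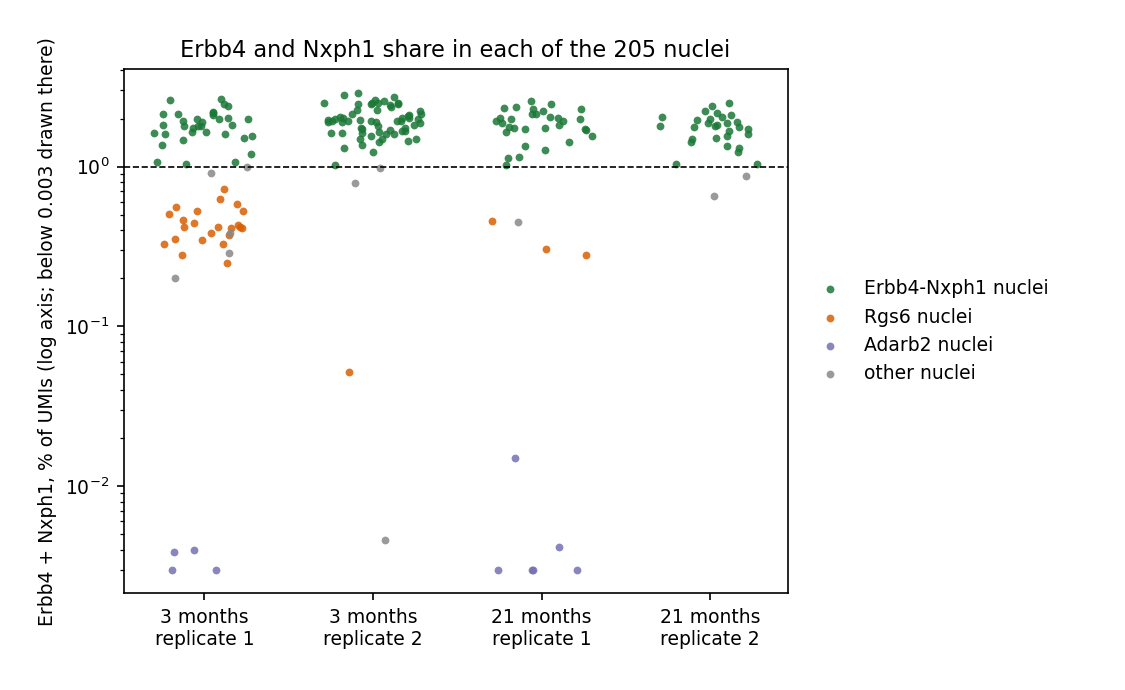
Share of UMIs from Erbb4 and Nxph1 (log axis, in percent) in each of the 205 nuclei by library, coloured by kind, with nuclei under 0.003% drawn at that value. The dashed line marks 1%. The Rgs6 nuclei (27 in all) are 23 from the first young library and the Adarb2 nuclei are all from the first library of each age.

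The kinds differed in the rule genes as well. The Erbb4-Nxph1 nuclei held 160 Pvalb and 336 Pthlh UMIs, the Rgs6 nuclei 89 and 2, and the Adarb2 nuclei 26 and 0. The last 11 nuclei held 19 and 10. Most Pthlh UMIs were thus in the Erbb4-Nxph1 nuclei. The Rgs6 nuclei carried Rgs6 at 1846 CPM against 7.14 CPM in the Erbb4-Nxph1 nuclei, Meis2, a homeobox gene of medium spiny neurons, at 1103 against 120.0 CPM, Isl1, a homeobox gene of the striatonigral lineage, at 51.2 against 0.680 CPM, and Six3, another homeobox gene, at 130.4 against 3.74 CPM. Lhx6 was at 1.65 against 57.4 CPM and Nkx2-1 at 0 against 25.1 CPM, and Sox6 and Maf lay below their level in the Erbb4-Nxph1 nuclei, at 42.9 against 657 CPM and 19.8 against 410.2 CPM. Erbb4 at 2267 CPM and Nxph1 at 1664 CPM were present, and Kcnc2, the Kv3.2 channel, and Btbd11 lay above their level there, at 388 against 188 CPM and 579.5 against 88.4 CPM. Lhx6 and Nkx2-1, both at or near 0, go against the label for these 27 nuclei, and the other markers are mixed. The Adarb2 nuclei carried Adarb2 at 5905 against 14.3 CPM and Gpc5, a proteoglycan, at 4671 against 16.0 CPM, with Erbb4 at 28.1 against 12124 CPM, Nxph1 at 8.04 against 6511 CPM and Sox6 about level at 643 against 657 CPM. Maf was at 12.1 against 410.2 CPM, Lhx6 at 24.1 against 57.4 CPM and Nkx2-1 at 8.04 against 25.1 CPM in them, so 3 of these 4 factors lay below their level in the Erbb4-Nxph1 nuclei. Their Kcnc2 was at 1849 against 188 CPM. Erbb4, Nxph1, Rgs6 and Adarb2 drew the kinds, and the other genes given for them were picked after their values were seen.

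Nuclei with more Pthlh than Pvalb UMIs numbered 25, 44, 20 and 14 (103 in all), those with more Pvalb 37, 11, 16 and 13 (77), and 25 were tied. Comparing the 2 sums within each library over 4936 genes, 21 genes (0.425%) were higher in the Pthlh-led nuclei and 29 (0.588%) in the Pvalb-led ones. Col23a1, a transmembrane collagen, was at 75.3, 40.2, 95.5 and 42.0 CPM in the Pthlh-led nuclei and had no UMI in the Pvalb-led nuclei of any library, a level at least 30.8-fold higher against a floor of 3 counts over the group (adjusted p = 0.00559). Tafa1, a secreted chemokine-like protein, was at 167, 97.2, 119 and 115 CPM against 0, 0, 14.7 and 0 CPM. Efna5, an ephrin ligand that guides axons, was at 739, 924, 1336 and 1443 CPM against 368, 297, 593 and 393 CPM (log2 1.41, SE 0.20, adjusted p = 0.0110). Epb41l4a, Dusp10, a phosphatase of stress kinases, Fat4, a giant cadherin, Maml3, a Notch coactivator, and Nfix, a transcription factor, were higher by 1.83 to 1.51 on the log2 scale. The libraries did not overlap between the groups for these 8 genes. They were named for a large difference with 1 direction in 4 libraries, so this is no further support.

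In the other direction, Kcnc2 was at 638, 509.8, 902 and 662 CPM in the Pvalb-led nuclei against 58.8, 114, 38.8 and 145 CPM in the Pthlh-led ones (log2 -2.98, SE 0.41, adjusted p = 0.0283). Tmem132c was at 59.0 to 139 CPM against 9.19 CPM in 1 library and 0 in 3. Pakap, a kinase-anchoring gene that the files list under 2 gene IDs, was higher under both, at log2 differences of -3.34 and -2.43. Rnf220, a ubiquitin ligase, St6galnac5, a sialyltransferase, Stxbp6, which binds the release machinery, and Slc25a13, a mitochondrial carrier, were also higher in the Pvalb-led nuclei, from -2.58 to -2.29. From the lists, Btbd11 and Cacna1c, a calcium channel, were higher there too, at -2.29 and -1.14. Kcnc1, by contrast, had a difference of 0.03 (SE 0.17, adjusted p = 0.977).

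These calls depended on the nuclei and libraries used. Of the 15 gene symbols named for this comparison, 12 lost their call under at least 1 alternative, and none changed direction. Kcnc2 passed in 5 of 9 alternatives. Its adjusted p was 0.164 without the first young library, 0.577 without doublets and 0.25 in the Erbb4-Nxph1 nuclei, with log2 differences of -2.80, -2.39 and -2.23. Efna5 also passed in 5 of 9, with adjusted p values of 1.93e-11 to 0.415, the highest in the Erbb4-Nxph1 nuclei.

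The kinds of nuclei entered this comparison unequally, since the Rgs6 and Adarb2 nuclei were nearly all Pvalb-led. Within the Erbb4-Nxph1 nuclei alone, the Pthlh-led numbered 23, 43, 20 and 14 and the Pvalb-led 7, 10, 6 and 11. There all 8 named Pthlh-led genes stayed higher in 4 of 4 libraries, with Tafa1 at 224, 99.3, 119 and 115 CPM against 0 in all 4. These 8 genes were named for that direction in all 4 libraries, and nearly all Pthlh-led nuclei lie in the subset. This outcome was thus largely set in advance. Of the Pvalb-led genes, St6galnac5 and Slc25a13 kept their direction in 4 of 4 libraries, Kcnc2 in 3, at 377, 569, 0 and 875 CPM against 76.4, 104, 38.8 and 145 CPM, and Rnf220 in 2. The fit on those nuclei made 54 calls, of which 18 were among the 50. Leaving out the first old library left 15 calls and leaving out the second 29.

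**Figure D3:**
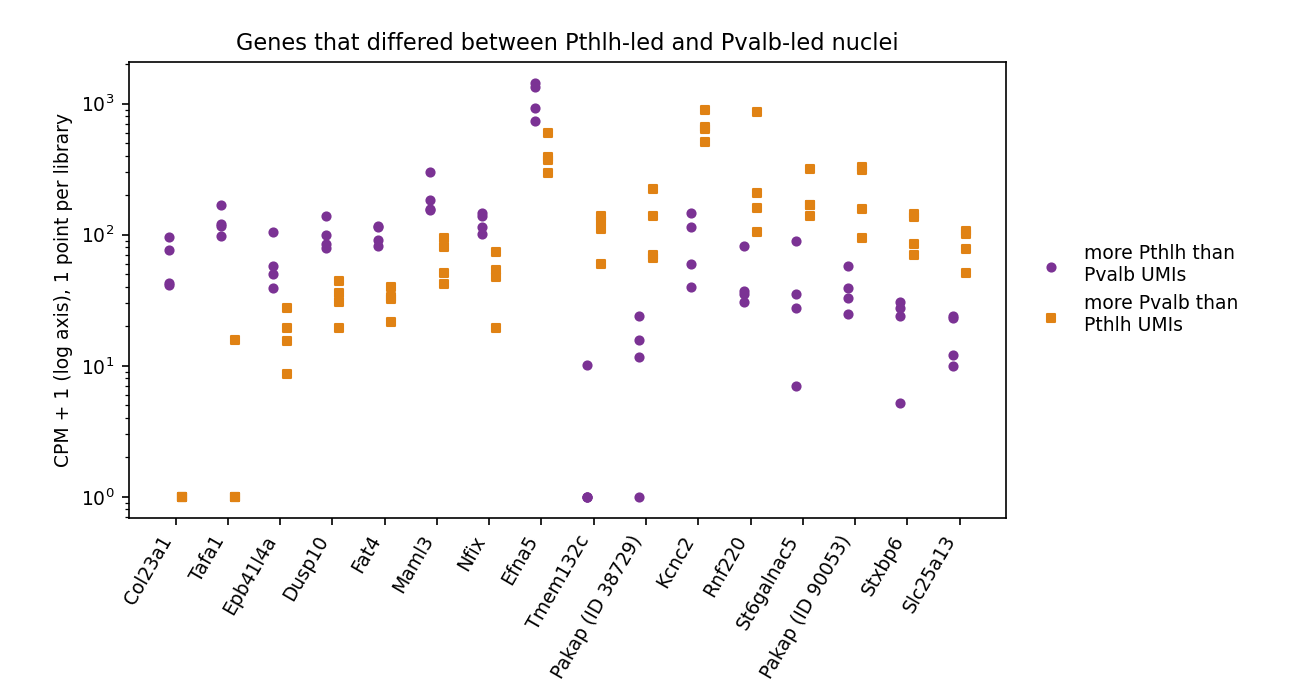
CPM plus 1 (log axis) of the 16 named genes in nuclei with more Pthlh than Pvalb UMIs (circles) and with more Pvalb than Pthlh UMIs (squares), with 1 point per library. For Col23a1 the squares are all at 0 CPM, and for Kcnc2 the squares lie at 509.8 to 902 CPM above circles at 38.8 to 145 CPM.

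The nearest other interneurons were the 34 nuclei with at least 6 UMIs of Sst, Npy and Nos1 (9, 10, 3 and 12 per library), which are sparse. Of 5878 genes tested, 400 (6.81%) were higher in the Pvalb and Pthlh nuclei and 424 (7.21%) lower. Pvalb and Sst interneurons both arise in the medial ganglionic eminence, though the Rgs6 nuclei summed here had Lhx6 and Nkx2-1 at or near 0. Markers of that origin and of fast spiking were split, and the part of the Rgs6 and Adarb2 nuclei in this was not tested. Of 11 tested, 6 were higher and 1, Sox6, was lower, at 549 ± 133 against 1491 ± 387 CPM (log2 -1.43, SE 0.27, edgeR adjusted p = 0.00263). Lhx6 did not pass, at 48.6 ± 20.9 against 88.1 ± 61.6 CPM. Erbb4 was higher by 3.19 (SE 0.31) and Etv1, a transcription factor, by 3.97 (SE 0.33) on the log2 scale. Of 20 potassium channel genes, 10 were higher, among them Kcnc1 by 1.75 (SE 0.22), and 1, Kcnd2, lower. Kcnc2 and Kcns3 did not pass, at log2 differences of -1.05 (SE 0.32, adjusted p = 0.0590) and 0.69 (SE 0.25, adjusted p = 0.0941).

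By size of difference, Il1rapl2, a synaptic adhesion receptor, was at 6308, 12254, 9022 and 10061 CPM against 84.9, 158, 295 and 222 CPM. Pde3a had 2096 UMIs in the Pvalb and Pthlh nuclei and 1 in the Sst nuclei, a ratio of 401 (95% counting interval 71.9 to 15849). Tafa1, Gna14, a G-protein subunit, and Pdlim3 had no UMI in the Sst nuclei and were at least 17.4-fold, 15.0-fold and 11.2-fold higher. Megf11, Gpc3 and Adamts5 were also higher. Lower genes were led by Ankfn1, at 0 to 1.50 CPM against 295 to 522 CPM, and Tacr1, the substance P receptor that marks Sst and Nos1 cells, at 5.25, 0, 9.16 and 3.38 CPM against 963, 610.4, 375 and 644 CPM. Hhip, a hedgehog-binding protein, Nxph2, Sox2ot, Col25a1, Ntn1, an axon guidance cue, and Nell1os, an antisense gene, followed. The Sst nuclei numbered 9, 10, 3 and 12, and 6, 7, 1 and 5 once called doublets were removed, after which 603 genes passed against 824 with them.

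The rule-defined nuclei were 0.534% (exact 95% interval 0.413 to 0.679) and 0.408% (0.316 to 0.519) of barcodes with at least 500 genes at 3 months and 0.288% (0.208 to 0.390) and 0.166% (0.113 to 0.235) at 21 months. Both old libraries lay below both young ones, at a mean of 0.227% ± 0.0866 against 0.471% ± 0.0890 (SD, n = 2 each), a difference of -0.244 points. The exact permutation test, two-sided, gave p = 0.33, the smallest that 2 libraries against 2 allow. The rule counts UMIs, and barcodes with at least 500 genes held a median of 10152 and 11999 UMIs in the young libraries and 8119 and 7314 in the old ones. With every barcode thinned to 15000 UMIs and shallower ones left out, which kept 3589, 6111, 3031 and 2117 barcodes, the shares were 0.724%, 0.524%, 0.660% and 0.425% and the ages overlapped (exact permutation p = 0.667). Among barcodes with at least 6 Gad UMIs the share was 2.32%, 1.54%, 1.58% and 1.30%, and the ages overlapped too. With thinning to 5000 UMIs, which left 2, 1, 0 and 1 nuclei, the shares were 0.0218%, 0.00785%, 0% and 0.00805% and the ages overlapped (exact permutation p = 0.667). In 4 further alternatives the ages stayed apart, each with an exact permutation p = 0.33. The ratio of the 21-month to the 3-month mean, 0.482 by the rule, was 0.472 without doublets, 0.499 for members with more UMIs of Nxph1, Kcnc2, Lhx6 and Sox6 than of Pde10a, Rgs9, Rarb and Ppp1r1b, and 0.569 for the Erbb4-Nxph1 nuclei. With at least 4 UMIs of Pvalb and Pthlh the shares were 0.146% and 0.149% against 0.0481% and 0.0214%, a ratio of 0.236. Gad nuclei with Erbb4 and Nxph1 at 1% of UMIs, whatever their Pvalb and Pthlh, were 0.842% and 0.866% of barcodes at 3 months and 0.803% and 0.594% at 21 months, a ratio of 0.818.

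**Figure D4:**
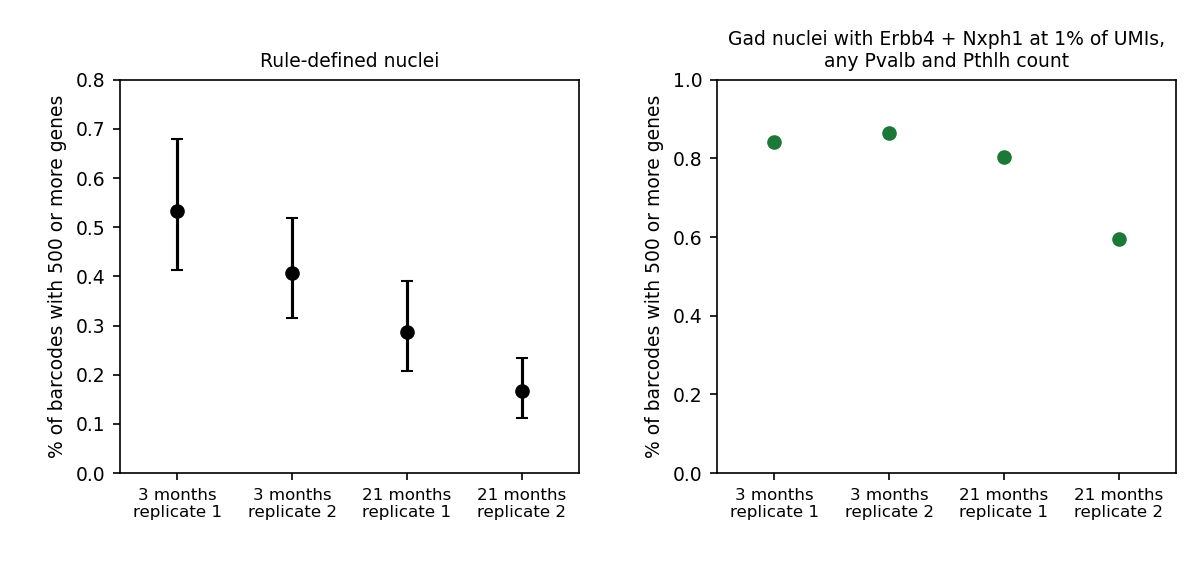
Share of barcodes with at least 500 genes, in percent, by library. The left panel shows the rule-defined nuclei with exact 95% intervals for counting error, and the right panel all Gad nuclei with Erbb4 and Nxph1 at 1% of UMIs (no interval drawn). The first young library is at 0.534% on the left and at 0.842% on the right, where the second old library is the lowest at 0.594%.

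Between ages, no gene passed the edgeR test in the summed nuclei of 2 libraries per age: edgeR called 0 of 9220 genes (0%), DESeq2 called 1, Tshz3 (adjusted p = 1.31e-04), and 357 (3.87%) had an unadjusted p under 0.05, 225 of them lower at 21 months. The libraries of the 2 ages did not overlap for 33.8% of all genes tested. The composition above differed between libraries of the same age, so values in the 157 Erbb4-Nxph1 nuclei are given beside those in all 205. In that subset edgeR called 1 of 6870 genes (0.0146%). Leaving out the first young library gave 17 calls and leaving out the second 174, with the 1 young library that remained assumed to vary like the old ones. The second young library was counted with a later Cell Ranger version than the other 3, and the part of this in the age values was not tested.

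Tshz3 (chr7:36698118-36773553 in mm10), a zinc finger transcription factor, had the smallest p. It stood at 54.7 and 87.5 CPM at 3 months and at 288 and 299 CPM at 21 months, so both old libraries were far above both young ones. The log2 difference was 2.06 (SE 0.25), with an edgeR adjusted p = 0.135, so it did not pass, and it passed in 7 of 16 alternatives. Over these, the log2 difference was 1.73 to 2.47 and the edgeR adjusted p ran from 4.81e-16 with no low-count filter to 0.999. The highest was in the nuclei that still met the rule after thinning to 15000 UMIs, summed at their full counts. With the sums themselves thinned to the smallest, the log2 difference was 1.97 (edgeR adjusted p = 0.627). In the Erbb4-Nxph1 nuclei the levels were 101 and 90.9 CPM against 387 and 334 CPM (log2 1.93), and Tshz3 was the gene called there. In the nuclei outside that subset it was at 17.5 and 58.8 CPM against 32.7 and 29.9 CPM. It was found in 34 of 66, 46 of 66, 36 of 42 and 28 of 31 nuclei. In the second old library 1 nucleus held 41 of its 177 UMIs, and without that nucleus the level was 244 CPM. By sex within library, which stands for the animal, the level was 36.3 to 80.5 CPM in the 4 young animals and 266 to 395 CPM in the 4 old ones, with nuclei of uncalled sex left out. In the Erbb4-Nxph1 nuclei these ranges were 55.7 to 125 CPM and 266 to 449.8 CPM. The 2 animals of a pool shared a library, so the replicate remains the library, with 2 per age. Some of the groups were small, such as 6 male nuclei with 20 Tshz3 UMIs in the second old library. The second young library had 11 male nuclei with 11 such UMIs. The part of free RNA in the sex calls was not tested.

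The other Gad nuclei held far less Tshz3, at 12.6 and 12.7 CPM against 19.2 and 24.3 CPM (log2 0.74, SE 0.13, adjusted p = 0.0606). Their age difference was smaller by 1.31 on the log2 scale (SE 0.24), and that term had an adjusted p = 0.0557. Cholinergic interneurons, where the level was high at both ages, were at 392 and 305 CPM against 238 and 298 CPM. The comparison of ages there was not tested.

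The other genes with the smallest p that were higher at 21 months did not pass, each with an adjusted p = 0.992. Trpc4, a cation channel, was at 28.5 and 30.8 CPM against 68.0 and 81.2 CPM, and 1 nucleus held 26 of its 48 UMIs in the second old library. Its log2 difference, 1.34 as reported, ran from 0.58 to 1.48 over 15 alternatives. The lowest was in the Erbb4-Nxph1 nuclei without doublets. Gpr19, an orphan receptor, was at 15.0 and 12.6 CPM against 32.7 and 32.1 CPM, and Ufd1, of protein degradation, at 24.7 and 25.9 CPM against 52.3 and 45.6 CPM. Cdh20, a cadherin, was at 146 and 176 CPM against 251 and 267 CPM, and in the Erbb4-Nxph1 nuclei its ages came close, at 292 and 182 CPM against 305 and 297 CPM. Cdh20 did pass in the other Gad nuclei, where it rose by 0.73 on the log2 scale (adjusted p = 0.0257).

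Of those lower at 21 months, none passed in edgeR on all 205 nuclei either. Atxn2l, an RNA-binding protein, was at 91.5 and 72.1 CPM against 32.7 and 28.7 CPM (log2 -1.37, SE 0.25) and fell in the other Gad nuclei by 1.08 (adjusted p = 0.0254). Rnf112, a neuronal ubiquitin ligase, was at 43.5 and 39.9 CPM against 18.3 and 13.5 CPM, and fell there as well, by 0.91 (adjusted p = 0.0254). Ndrg4 was at 179.9 and 164 CPM against 86.3 and 101 CPM. Atxn2l passed in 3 of 16 alternatives, with no low-count filter (adjusted p = 0.00338), without the second young library (0.00121) and in the Erbb4-Nxph1 nuclei without doublets (0.0497), and its adjusted p reached 1. Without the second young library Ndrg4 passed as well (0.0324), and so did Trpc4 (0.00722) and Cdh20 (0.0379) among the genes higher at 21 months. Trpc4 also passed with no low-count filter (0.0051). Ntng1, an axon guidance protein, and Syndig1, an AMPA receptor-associated protein, were at 22.5 and 25.2 CPM against 6.54 and 6.76 CPM and at 43.5 and 37.1 CPM against 15.7 and 16.9 CPM. In the Erbb4-Nxph1 nuclei Ntng1 was at 3.38 and 7.84 CPM against 5.45 and 1.91 CPM, and Syndig1 at 6.76 and 22.7 CPM against 3.63 and 13.3 CPM, so the ages overlapped there for both.

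**Figure D5:**
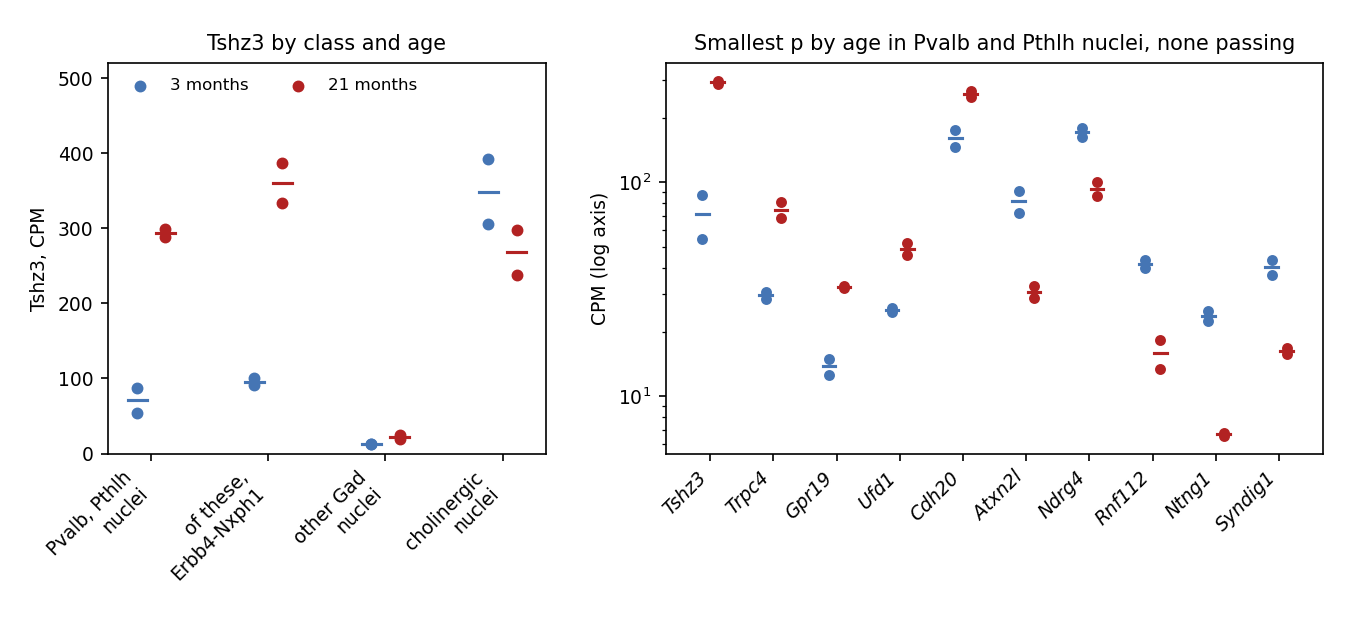
Left, Tshz3 in CPM in 4 classes of nuclei, with 2 libraries per age as points and their mean as a line. Right, the 10 named genes with the smallest p by age in the Pvalb and Pthlh nuclei (log axis), none of which passed in edgeR, while DESeq2 called Tshz3. Tshz3 at 21 months lies at 288 and 299 CPM, above 54.7 and 87.5 CPM at 3 months.

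No list had a gene that passed with age. Of 16 chaperones tested, which fold proteins, 14 had a log2 difference under 0, with a median of -0.43 against 0.00 over all genes tested, where 50.3% were under 0. An unadjusted p under 0.05 was reached by 6, all lower at 21 months, against 2.44% of all genes. The lists were chosen with earlier results of these data known, so these counts are a description and no independent support. In the Erbb4-Nxph1 nuclei the chaperone median was -0.50 over 14 tested. In the other Gad nuclei it was -0.30, and 2 of 17 passed, both lower, where 0.492% of all genes were called lower. Hspa8, a cytosolic chaperone, had a log2 difference of -0.76 (adjusted p = 0.992), with 90.0 and 95.8 CPM against 70.6 and 35.5 CPM, and Hspa5, its counterpart in the endoplasmic reticulum, of -0.68. Of 12 interneuron transcription factors 11 lay above 0, with a median of 0.36, and of 11 GABA-A receptor subunits 9, with a median of 0.27. In the Erbb4-Nxph1 nuclei those medians were 0.13 and 0.24. Medians were 0.01 for 21 potassium channels, -0.12 for 25 mitochondrial genes and -0.18 for 9 perineuronal net genes. The summed medial ganglionic eminence markers were at 12564 and 20837 CPM at 3 months and 16977 and 18621 CPM at 21 months, and the part of this composition in the list medians was not tested.

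The difference between the age effects of the Pvalb and Pthlh nuclei and of the other Gad nuclei passed for 1 of 17593 genes (0.00568%), Dpp10 (chr1:123321471-124045559 in mm10), a subunit of Kv4 channels. In the Pvalb and Pthlh nuclei it stood at 3742 and 1399 CPM at 3 months and 2166 and 1038 CPM at 21 months, so the ages overlapped, and in the other Gad nuclei at 319 and 165 CPM against 554 and 337 CPM. Its own age difference passed in neither class. The term was -1.50 (SE 0.22, adjusted p = 0.00304). In the Erbb4-Nxph1 nuclei, where its levels were 1697 and 1530 CPM against 1806 and 1033 CPM, the term was -1.10 (adjusted p = 2.67e-04). Without the first old library the term had an adjusted p = 0.494, and without the second an adjusted p of 1, while the other alternatives run gave 1.25e-09 to 0.0153. Dpp10 varied most in the nuclei outside the Erbb4-Nxph1 subset, from 300.4 to 5373 CPM across libraries.

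The other genes named for this difference did not pass. Trpc4 and Tshz3, the nearest to the threshold, had terms of 1.67 (SE 0.32, adjusted p = 0.0635) and 1.31. Mgat4c, a glycosyltransferase, Brinp3 and Impg1 had positive terms, and Pla2g7, a phospholipase, Slc24a4, Chrm2 and Pdlim5 negative ones, with adjusted p values from 0.474 to 1.00. Chrm2, higher in the Pvalb and Pthlh nuclei than in the other Gad nuclei, was at 321 and 177 CPM against 161 and 147 CPM (term -0.90, SE 0.22, adjusted p = 0.474).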

How the data were processed

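Single nuclei of the caudate putamen were counted as UMIs per gene by the authors, and the deposited values are raw counts. The submitters' processing notes name mm10 and Cell Ranger 4.0.0, while per the file headers version 6.1.2 made 3 of the caudate putamen files and version 7.0.0 that of the second library at 3 months. Whether introns were counted, and alike in all libraries, is not given in the sources used here, so counting may differ between that library and the others, the other young one included. Libraries held 141558546 to 214142905 UMIs. Counts of the chosen nuclei were summed per library, the replicate, and tested with edgeR 4.0.16 (TMM, quasi-likelihood, low counts filtered, Benjamini-Hochberg, R 4.3.3) on all genes but the 10 rule genes. Age was fitted without a replicate block, and class comparisons with the library as a block. DESeq2 1.42.0 was an alternative, as were other filters, left-out libraries, doublets (Scrublet in scanpy 1.11.5), narrower members and thinning. Single values had exact permutation tests. Intervals cover counting error only, and UMIs from a nucleus are not replicates. Gene positions are from GENCODE vM21. Named genes were the 8 largest in each direction that passed, with a mean of at least 30 CPM in the higher class and 1 direction in 4 libraries, or, by age, the 5 smallest p in a direction. Counts were also simulated at a dispersion (spread between libraries) of 0.05, with the same expected levels in the libraries of an age. There, 2 libraries per age recovered 81.6% of 98 genes changed 4-fold and 12.6% of 95 changed 2-fold, among 9149 genes. The real libraries differed in composition within an age, so recovery in the real data was not measured. Some results are not reported here. The members and lists were chosen with earlier results of these data known.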

Additional observations from a re-analysis of the deposited data

Results flagged for a closer look

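Dpp10 was set apart because its age effect differed between the Pvalb and Pthlh nuclei and the other Gad nuclei, by -1.50 on the log2 scale (edgeR interaction term, adjusted p = 0.00304). Both old libraries are needed for that call, which passed in 7 of 9 alternatives. The term itself ran from -1.73 to -1.10 over these and never changed direction. The nuclei outside the Erbb4-Nxph1 subset held it at 5373, 300.4, 3091 and 1075 CPM in the 4 libraries. With those nuclei left out the term was -1.10 and still passed, in a subset chosen after the data were seen.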

How the results depend on the processing

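Counts of age calls moved with single libraries. Age calls, 0 as reported, were 1 by DESeq2 and in the Erbb4-Nxph1 nuclei, 3 in the latter without doublets, 8 with no low-count filter, 3 with the replicate block, and 0 to 174 when 1 library was left out. Numbers 1 and 2 do not pair the samples in the labels, and the deviations of same-numbered samples from their age's mean correlated at r = 0.228 over 9220 genes. Where leaving out a library left 1 at an age, that library was assumed to vary like those of the other age. The calls against other Gad nuclei stayed within 1.5 times under every alternative run. Against the Sst nuclei, 824 calls became 1269 with no filter. For Pthlh-led against Pvalb-led nuclei, 50 became 441 with no filter and 15 to 43 without 1 library. The age term calls, 1 as reported, were 10 with no filter, 2 with narrower members, 16 in the Erbb4-Nxph1 nuclei and 0 to 141 without 1 library. The cause was not tested. None of the named genes changed direction. An age fit on nuclei chosen after thinning to 5000 UMIs was not run, since they numbered 2, 1, 0 and 1. The Erbb4-Nxph1 and 15000-UMI alternatives were chosen after seeing the data. The thinned share differed by -0.0816 points, against -0.244 as reported.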
